A study of Homo sapiens with 21 samples.

Results

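Differentiated SH-SY5Y cells exposed to 8:2 FTOH were compared, gene by gene, with the same cells exposed to PFOA. SH-SY5Y is a human neuroblastoma line, genotype WT in the labels, that takes on neuron-like features when differentiated. The comparison used the 3 libraries of 8:2 FTOH and the 3 of PFOA, 6 of the 21 libraries in the series, and all 24879 genes that passed a filter on low counts, of 62656 in the deposited count table. Cells were differentiated for 11 days and then given 30 µM of a compound for 24 h, so dose and time were matched. The treatment solutions held 1% methanol. The 3 control libraries, used here to place both compounds, come from cells of the same 11-day differentiation labelled Control, and whether they received methanol is not given in the sources used here. The labels call the treatments triplicates without saying that the cultures were separate. The p-values therefore measure a spread between libraries that may be technical. That spread was estimated over all 21 libraries of the series, not from the 6 compared alone.

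8:2 FTOH is a fluorotelomer alcohol: a perfluorinated chain joined by a short unfluorinated segment to an alcohol group. PFOA is a perfluorinated carboxylic acid, with no unfluorinated segment. As background, the alcohol is a known precursor of perfluorinated carboxylic acids including PFOA. Alcohol dehydrogenases and cytochrome P450 enzymes oxidise it to an aldehyde, aldehyde dehydrogenases act next, and later steps shorten and defluorinate the chain, while conjugating enzymes attach glucuronate, sulfate or glutathione to the intermediates. This pathway is best known from liver. The files measure RNA and hold no measurement of either compound, so how much PFOA formed in the 8:2 FTOH cultures was not measured.

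The cells carried the markers of their labelled type in both groups. The adrenergic neuroblastoma factor HAND2 and the noradrenaline-forming enzyme DBH ranged over 644.5 to 743.5 and 1035 to 1335 CPM (read counts scaled by effective library size) in the 8:2 FTOH libraries, against 634.6 to 715.0 and 976.4 to 1121 CPM in the PFOA libraries. TH, which makes the dopamine precursor, was near the limit of detection, with 67 counts over the 8:2 FTOH libraries and 43 over the PFOA libraries. Of 13 immune, epithelial and endothelial markers, 4 passed the filter, and their summed level was 5.424 to 7.611 CPM with 8:2 FTOH and 5.22 to 7.302 CPM with PFOA over all 13. The epithelial marker EPCAM had 132 counts over the 8:2 FTOH libraries and 112 over the PFOA libraries, the endothelial marker VWF 84 and 88, and the monocyte marker CD14 40 and 19. PTPRC, the pan-leukocyte marker, had 2 counts in the 8:2 FTOH libraries and 0 in the PFOA libraries, and PECAM1, another endothelial marker, had 0 in the 8:2 FTOH libraries and 2 in the PFOA libraries. In bulk RNA, a change in the share of cells and a change in RNA per cell cannot be told apart. Summed CPM of 12 Schwann and glial markers was 31.89 to 34.63 with 8:2 FTOH and 32.56 to 35.86 with PFOA.

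The 8:2 FTOH libraries held 12316603, 25330837 and 7680024 counts, and the PFOA libraries 11245199, 13578462 and 21643077. 8:2 FTOH replicate 3, the shallowest of the 21 libraries, also stood apart in its makeup. Mitochondrial ribosomal RNA took 2.90% of its counts, against at most 0.0131% in the other 5 libraries and 1.96% in control replicate 3. It is one of 2 libraries absent from the authors' normalized table, the other being the same control replicate 3. Distances between libraries, as the root mean square of differences in log2(CPM + 1), were 0.246 to 0.371 between the groups, against 0.268 to 0.382 within 8:2 FTOH and 0.259 to 0.311 within PFOA.

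The question the comparison addresses is whether the precursor and its product leave different RNA profiles. In the edgeR quasi-likelihood fit, 1 gene of 24879 passed an adjusted p of 0.05, or 0.00402% of those tested. That gene was SLC7A11, which rose with 8:2 FTOH relative to PFOA. None fell. At an unadjusted p under 0.05 there were 1621 genes (6.52%), 856 higher (3.44%) and 765 lower (3.07%). The 3 and 3 libraries did not overlap for 2872 genes (11.5%), 1354 of them higher (5.44%) and 1518 lower (6.1%). DESeq2 called 19 genes, 16 higher and 3 lower.

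Measured by the spread between these libraries, the data left limited room for large differences in most genes. That spread may be technical, and the intervals would then be too narrow for separate cultures. Of 19951 genes at a mean of 1 CPM or more, 84.62% had a 95% interval that lay within a 2-fold difference either way, and 60.96% had one within 1.5-fold. The median interval reached 0.308 log2 units to each side of the estimate, a 1.24-fold difference. For the remaining genes, SLC7A11 among them, the interval reached beyond 2-fold, and a p that misses the threshold does not show that the compounds act alike.

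**Figure D1:**
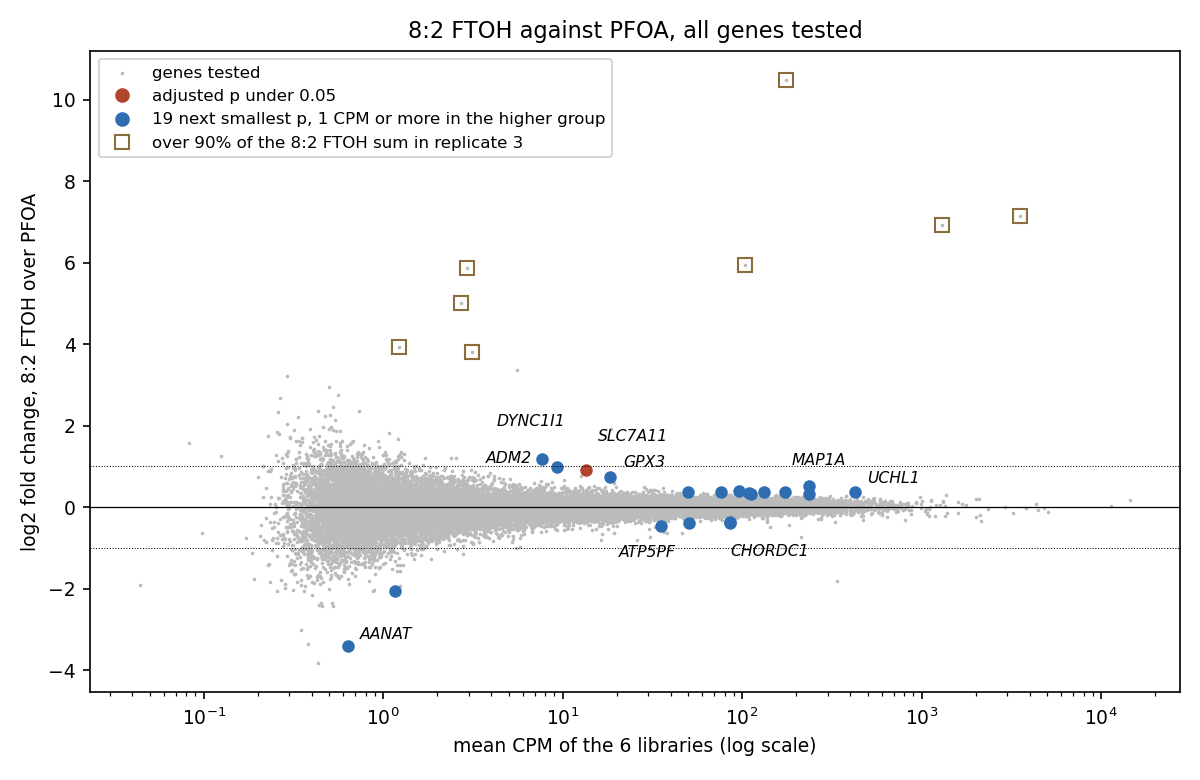
Each point is 1 of the genes tested, with its mean CPM over the 6 libraries on a log axis and its fitted log2 fold change, 8:2 FTOH over PFOA, on the vertical axis. SLC7A11 (red) is the 1 gene past the threshold, the 19 blue points had the next smallest p-values, and the 8 open squares are genes whose signal came almost wholly from 8:2 FTOH replicate 3; dotted lines mark a 2-fold difference.

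SLC7A11 encodes the light chain of the cystine/glutamate exchanger, which brings in cystine for glutathione synthesis. It lies at chr4:138164097-138242349 (hg38) and overlaps SLC7A11-AS1, and counting ignored strand. It stood at 15.07, 18.87 and 18.62 CPM in the 8:2 FTOH libraries, against 10.03, 8.884 and 9.199 CPM in the PFOA libraries and 4.308, 6.661 and 7.899 CPM in controls. Every 8:2 FTOH library was above every PFOA library, and every PFOA library was above every control library. The counts behind these levels were 183, 478 and 144 with 8:2 FTOH and 117, 119 and 204 with PFOA. The log2 fold change, 8:2 FTOH over PFOA, was 0.91 ± 0.16 (SE, n = 3 and 3), 1.88-fold with a 95% interval of 1.49 to 2.36 (edgeR adjusted p = 0.0372).

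The size of the SLC7A11 difference held while its call did not. With 1 library left out at a time, the log2 fold change stayed between 0.84 and 1.00, but the edgeR adjusted p ran from 0.00916 to 0.698 and passed only without 8:2 FTOH replicate 1. It was 0.0685, 0.109 and 0.206 without PFOA replicates 1, 2 and 3, 0.698 without 8:2 FTOH replicate 2 and 0.102 without 8:2 FTOH replicate 3. Across the 7 groups, 8:2 FTOH had the highest mean level of SLC7A11, 17.52 ± 2.13 CPM (SD, n = 3), and its libraries did not overlap those of 8:2 FTS (11.62 to 13.80 CPM), the next group. PFOA, at 9.37 ± 0.59 CPM, was the lowest of the 6 compounds and above control, at 6.29 ± 1.82 CPM; the ranges of PFDS (9.76 to 10.64 CPM) and PFDA (9.91 to 12.11 CPM) overlapped that of PFOA (8.88 to 10.03 CPM).

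**Figure D2:**
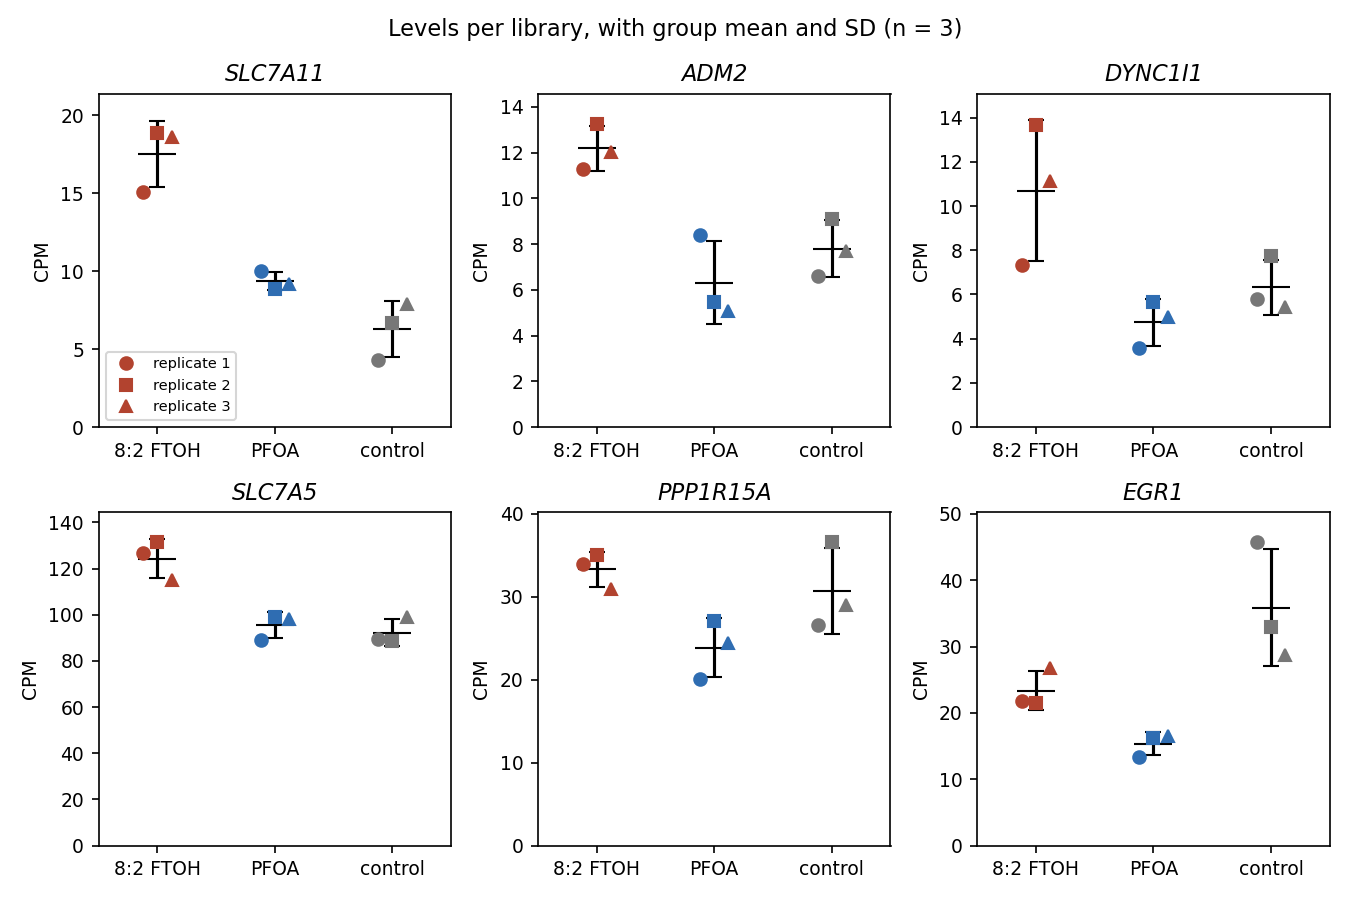
Levels in CPM of 6 genes in each library of 8:2 FTOH, PFOA and control, with the group mean (dash) and SD (bar, n = 3). SLC7A11, ADM2, DYNC1I1, SLC7A5, PPP1R15A and EGR1 were higher in all 3 8:2 FTOH libraries than in all 3 PFOA libraries, with SLC7A11 the 1 gene past the threshold, and EGR1 was lowest in PFOA.

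The 19 genes with the next smallest p-values, at 1 CPM or more in the higher group, did not pass, and their values are given as measured. They were picked by p in this same comparison, so separate groups among them add no support. DYNC1I1, an intermediate chain of the cytoplasmic dynein motor, had 7.328, 13.66 and 11.12 CPM with 8:2 FTOH and 3.599, 5.674 and 4.961 CPM with PFOA. Its log2 fold change was 1.18 ± 0.23 (SE; edgeR adjusted p = 0.0524), or 2.27-fold. ADM2, a peptide of the calcitonin family, had 11.28, 13.26 and 12.02 CPM with 8:2 FTOH and 8.397, 5.45 and 5.096 CPM with PFOA, a log2 fold change of 0.98 ± 0.19 (SE; edgeR adjusted p = 0.0524); the gene overlaps SBF1. In both, the groups did not overlap, and the control libraries stood at 5.424 to 7.75 CPM for DYNC1I1, reaching into the 8:2 FTOH range, and at 6.618 to 9.091 CPM for ADM2, below every 8:2 FTOH library. Across the 7 groups, the ADM2 mean of 8:2 FTOH (12.19 CPM) was near that of 8:2 FTS (11.83 CPM), and PFOA had the lowest (6.314 CPM). For DYNC1I1, the mean of 8:2 FTOH (10.7 CPM) stood above that of the next group, control (6.331 CPM).

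UCHL1, a neuronal ubiquitin hydrolase, had 452, 527.4 and 461.5 CPM in the 8:2 FTOH libraries and 366.1, 384.4 and 357.2 CPM in the PFOA libraries. The difference was 1.3-fold, with an interval of 1.17 to 1.45 (edgeR adjusted p = 0.0675). GPX3, the secreted glutathione peroxidase, had 18.77, 26.57 and 23.53 CPM against 12.6, 16.57 and 12.63 CPM in the PFOA libraries, a 1.66-fold difference (edgeR adjusted p = 0.0719). Both were separated by group, and both had control levels close to those of PFOA (365.2 to 389.7 CPM for UCHL1 and 13.37 to 17.8 CPM for GPX3). MAP1A, a microtubule-associated protein of neurons, had 230.5, 332.9 and 268.4 CPM with 8:2 FTOH and 163.2, 227.6 and 187.9 CPM with PFOA (log2 fold change 0.53, edgeR adjusted p = 0.157). FAM219A, CUX2 and PLK1, the mitotic kinase, were also higher with 8:2 FTOH, with log2 fold changes of 0.40, 0.32 and 0.38.

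AANAT, the enzyme that acetylates serotonin on the way to melatonin, had the most negative fold change of the 19, at low counts (log2 fold change -3.40 ± 0.72, SE). It had 1, 4 and 0 counts in the 8:2 FTOH libraries, against 15, 16 and 24 in the PFOA libraries, which is 0.082, 0.158 and 0 CPM against 1.285, 1.194 and 1.082 CPM. The controls spanned 0.084 to 0.711 CPM and overlapped the 8:2 FTOH range (edgeR adjusted p = 0.0719 for 8:2 FTOH against PFOA). CHORDC1, a co-chaperone of HSP90, had 71.14, 74.56 and 78.34 CPM with 8:2 FTOH and 101, 91.6 and 97.72 CPM with PFOA, and NOL11, a factor of ribosomal RNA production, had 83.33, 72.04 and 68 CPM with 8:2 FTOH and 103.6, 96.98 and 91.5 CPM with PFOA. Their edgeR adjusted p-values were 0.0917 and 0.0894, and neither gene's groups overlapped. ATP5PF, a coupling subunit of ATP synthase, had 32.19, 27.55 and 29.48 CPM with 8:2 FTOH against 34.96, 46.58 and 41.13 CPM with PFOA (edgeR adjusted p = 0.195). RSRP1 and the pseudogene ENSG00000275756, which overlaps SPTLC1, had log2 fold changes of -0.40 and -2.07.

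The largest fitted rises were not among these genes. A fitted difference over 4-fold, with a mean of 1 CPM or more in the higher group, was found for 15 genes. This limit was chosen after the values were seen. Of the 15, 11 were higher with 8:2 FTOH, and AANAT and ENSG00000275756 were among the 4 lower. In 8 of the 11, over 90% of the summed CPM of the 8:2 FTOH group came from replicate 3. MT-RNR2, the large mitochondrial ribosomal RNA, had 47.34, 68.45 and 21060 CPM in the 8:2 FTOH libraries and 34.79, 20.6 and 90.91 CPM in the PFOA libraries. MT-RNR1, the small one, had 17.54, 32.13 and 7734 CPM with 8:2 FTOH and 15, 10.82 and 36.12 CPM with PFOA. The lowest edgeR adjusted p of the 8 was 0.722. The library kit, per the labels, depletes ribosomal RNA.

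Genes of the integrated stress response had the highest median difference of the lists, apart from a list of other-cell markers with 4 tested members. In this response, blocked translation initiation raises the transcription factor ATF4, which induces amino acid transporters, tRNA synthetases and stress regulators, SLC7A11 among them. Of 35 members tested, of 37 listed, 32 were higher with 8:2 FTOH than with PFOA, with a median log2 fold change of 0.18, against 49.4% higher and a median of -0.003 over all genes tested. 1 member was called (SLC7A11), against 0.00402% of all genes. At an unadjusted p under 0.05, 12 were higher and 0 lower, against 3.44% and 3.07% of all genes. In 11 the groups did not overlap, all 11 higher, and 5.44% of all genes were separate and higher. SLC7A5, the large neutral amino acid transporter, had 126.7, 131.4 and 114.9 CPM with 8:2 FTOH and 89.2, 99.22 and 98.22 CPM with PFOA (1.3-fold, edgeR adjusted p = 0.195). PPP1R15A, which directs dephosphorylation of the initiation factor eIF2 alpha, had 34.01, 35.01 and 30.9 CPM with 8:2 FTOH and 20.14, 27.1 and 24.4 CPM with PFOA (1.4-fold, edgeR adjusted p = 0.25).

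The same list did not stand in the same place relative to control for each member. The fitted log2 fold changes for 8:2 FTOH and for PFOA against the shared controls were 0.43 and 0.05 for SLC7A5, and 0.12 and -0.36 for PPP1R15A. Across the 7 groups, the SLC7A5 mean of 8:2 FTOH (124.4 CPM) lay between those of PFOS (121 CPM) and 8:2 FTS (128.4 CPM). For PPP1R15A, 8:2 FTOH had the highest mean (33.31 CPM) and PFOA the lowest (23.88 CPM). CHAC1, a glutathione-degrading enzyme, had 26.43, 23.13 and 14.09 CPM with 8:2 FTOH against 16.45, 16.35 and 16.05 CPM with PFOA, so 8:2 FTOH replicate 3 lay below all PFOA libraries. The mean deviation of the 35 members from their mean over the 6 libraries was 0.181, 0.151 and -0.039 log2 units in 8:2 FTOH replicates 1, 2 and 3, against -0.138, -0.083 and -0.072 in the PFOA libraries and -0.296, -0.094 and 0.011 in controls. 8:2 FTOH replicate 3 lay much nearer to PFOA than the other 2 did, and the controls reached from below PFOA to above 8:2 FTOH replicate 3. Without that library the median difference was 0.24 and 33 members were higher.

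Some promoters of this list held the letters that ATF4 dimers are known to bind, and a few are printed to show the element beside the measured differences. The motif searched was TGATGNAAN, on both strands, in 300 bases from 250 before to 50 after each gene start in RefSeq (GRCh38.p14). It was found for 12 of the 32 list genes in that table (37.5%), against 4.45% of all 27305 genes there. SLC7A11 is not among these 32 genes. The list gathers genes tied to ATF4, so a share above that of all genes follows from its making. It bears on neither compound. Capitals mark the match in 30 bases read along the gene's strand, and the CHAC1 match is on the opposite strand.
SLC7A1 (chr13:29595662-29595691, minus strand): ggcgcactgcTGATGAAACctggcgccgga
ASNS (chr7:97872457-97872486, minus strand): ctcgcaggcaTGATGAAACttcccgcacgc
CEBPG (chr19:33374061-33374090, plus strand): gcgcggcgtcTGATGCAACctgccggcaac
CHAC1 (chr15:40953251-40953280, plus strand): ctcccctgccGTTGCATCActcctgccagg

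Genes with the same core letters did not share 1 value. SLC7A1, the cationic amino acid transporter, had 340.4, 357 and 311.7 CPM with 8:2 FTOH and 247.5, 301.2 and 291.4 CPM with PFOA, with a log2 fold change of 0.27 (edgeR adjusted p = 0.6). ASNS, the asparagine synthetase whose match has the same 9 letters as that of SLC7A1, averaged 17.91 ± 0.52 CPM with 8:2 FTOH and 19.22 ± 2.59 CPM with PFOA (SD, n = 3 each), with a log2 fold change of -0.10. CEBPG, a partner of ATF4, averaged 91.58 ± 2.14 CPM with 8:2 FTOH and 84.05 ± 3.98 CPM with PFOA (log2 fold change 0.13). A match describes the letters in the window and is not evidence of binding in these cells.

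NRF2 is the transcription factor of the antioxidant response, and its targets and the glutathione enzymes share SLC7A11 and CHAC1 with the ATF4 list. 23 of 29 members were higher with 8:2 FTOH, with a median log2 fold change of 0.15. 7 were higher and 0 lower at an unadjusted p under 0.05, against 3.44% and 3.07% of all genes. The groups did not overlap for 6 higher and 2 lower members, against 5.44% and 6.1% of all genes. TXNRD1, the cytosolic thioredoxin reductase, had 164.1, 174.1 and 159.7 CPM with 8:2 FTOH and 127.7, 146.8 and 138.1 CPM with PFOA, and ME1, a malic enzyme that makes NADPH, had 47.1, 50.84 and 52.88 CPM with 8:2 FTOH and 39.07, 40.84 and 39.01 CPM with PFOA. Neither passed the test (edgeR adjusted p = 0.6 and 0.45). GPX4, the lipid peroxide reductase, differed by 0.21 on the log2 scale between the compounds, with ranges of 68.26 to 93.45 CPM with 8:2 FTOH and 66.15 to 72.64 CPM with PFOA that overlapped.

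Several of the smallest p-values belonged to the ubiquitin-proteasome system, which unfolds and degrades tagged proteins, and 2 lists were made after that was seen, so their counts support nothing by themselves. VCP, the segregase ATPase, had 251.3, 284.5 and 250.7 CPM with 8:2 FTOH and 199.1, 221 and 205.9 CPM with PFOA, a 1.26-fold difference (edgeR adjusted p = 0.151). Its cofactors NPLOC4 and NSFL1C were 0.37 higher each on the log2 scale (edgeR adjusted p = 0.0675 and 0.0719), and 15 of 19 genes of VCP and its cofactors were higher. The groups did not overlap for any of these 3 genes, which were picked by their small p-values in this same comparison.

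The proteasome lid subunit PSMD11 had 143.8, 166 and 134.8 CPM with 8:2 FTOH and 106.4, 123.4 and 116.8 CPM with PFOA (log2 fold change 0.36, edgeR adjusted p = 0.0719). PSMD3 had a log2 fold change of 0.36, the ubiquitin receptor ADRM1 0.46 and the core subunit PSMB2 0.31, none past the threshold. Of 33 genes for 26S subunits, 25 were higher, 14 of them and 1 lower gene at an unadjusted p under 0.05, against 3.44% higher and 3.07% lower over all genes. The median log2 fold change was 0.16. This list was made after the values were seen, so its counts support nothing by themselves. Relative to control, the fitted values of PSMD11 were 0.23 for 8:2 FTOH and -0.14 for PFOA, and those of VCP were 0.18 and -0.15, so the difference between the compounds was made of values on either side of the shared controls, none of them past the threshold.

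The lists are set side by side in the plot of medians. Lysosome and autophagy genes had a median log2 fold change of 0.12, with 25 of 30 higher and 8 higher at an unadjusted p under 0.05, against 3.44% of all genes. CTSD, the aspartic protease cathepsin D, had 17.78, 29.01 and 22.24 CPM with 8:2 FTOH and 14.74, 17.32 and 17.81 CPM with PFOA and the lowest 8:2 FTOH library was just under the highest PFOA library. Glycolysis and hypoxia genes had a median of 0.11 (23 of 30 higher), among them ALDOA, GPI and PFKP with log2 fold changes of 0.42, 0.22 and 0.18, while P4HA1, a collagen hydroxylase induced by hypoxia, was lower at -0.26. Neuronal cytoskeleton genes had a median of 0.08 (34 of 45 higher), with KIF1A, the axonal kinesin, at 0.26, and catecholamine and cholinergic genes one of 0.07 (27 of 35 higher), with the vesicular acetylcholine transporter SLC18A3 at 0.29. Against the shared controls, the median of the cytoskeleton list was -0.13 for 8:2 FTOH and -0.18 for PFOA. By mean deviation per library, every 8:2 FTOH library of that list lay below every control library (0.136 to 0.153). By the same measure, 8:2 FTOH replicate 3 lay within the PFOA range in the glycolysis (-0.08), cytoskeleton (-0.02) and catecholamine (-0.04) lists.

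**Figure D3:**
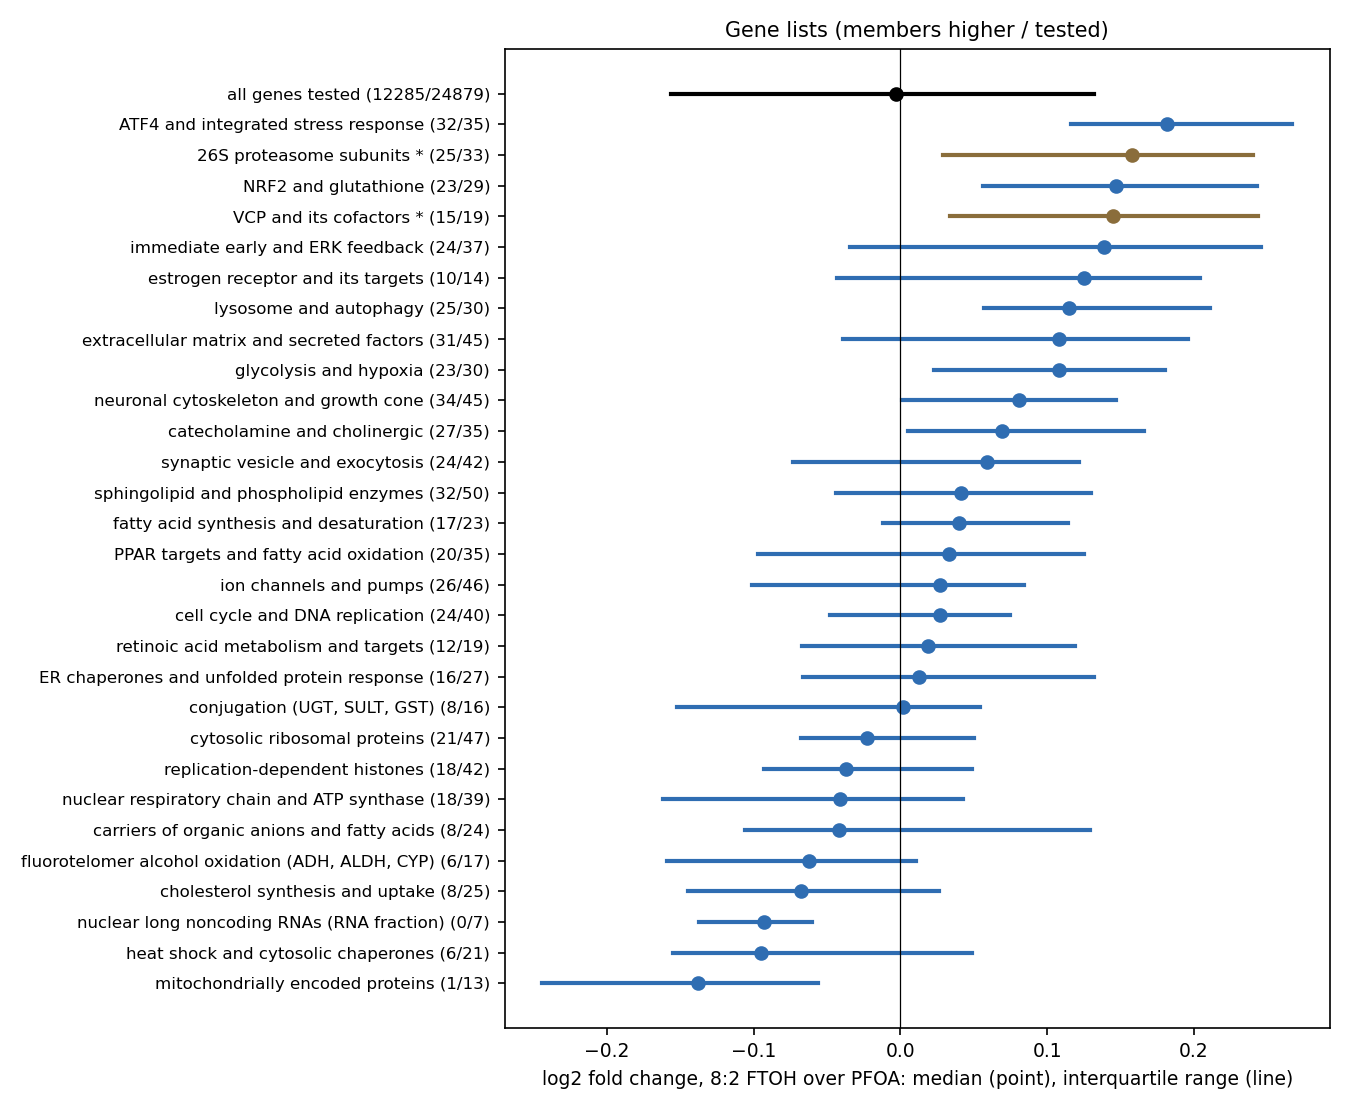
Median (point) and interquartile range (line) of the fitted log2 fold changes, 8:2 FTOH over PFOA, of the tested members of each gene list, with members higher and members tested in brackets. All genes tested (black) centre at -0.003. Of the lists drawn, which do not include the 3 lists of other cell types and states, the ATF4 list has the highest median, at 0.18, and the mitochondrially encoded proteins the lowest, at -0.14; the lists marked with a star were made after the values were seen.

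Fewer lists lay on the lower side. Of the 13 proteins encoded by mitochondrial DNA, all part of the respiratory chain or ATP synthase, 12 were lower with 8:2 FTOH, with a median log2 fold change of -0.14. None reached an unadjusted p of 0.05, although 5 had groups that did not overlap, all 5 lower, against 6.1% of all genes. MT-ND6 had 426.3, 402 and 423.8 CPM with 8:2 FTOH, against 498.2, 523.2 and 548.9 CPM with PFOA and 710.8 to 788.2 CPM in controls, and its 95% interval for the compounds ran from -0.88 to 0.22 on the log2 scale. Without 8:2 FTOH replicate 3, which held the mitochondrial ribosomal RNA, the list's median was -0.08 with 4 members higher.

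Heat shock and cytosolic chaperone genes had a median log2 fold change of -0.10 (6 of 21 higher, 0 higher and 2 lower at an unadjusted p under 0.05, against 3.44% and 3.07% of all genes). Cholesterol synthesis and uptake genes had a median of -0.07 (8 of 25 higher), with IDI1, an isomerase of the pathway, differing by -0.27 on the log2 scale. In several lists the libraries of 8:2 FTOH lay far from each other. Cytosolic ribosomal proteins deviated by 0.160, 0.024 and -0.214 log2 units in its 3 replicates, against -0.001, 0.054 and -0.023 in the PFOA libraries, and replication-dependent histones by 0.267, -0.060 and -0.281, against 0.025, 0.056 and -0.008 in the PFOA libraries. The nuclear respiratory chain list deviated by 0.096, -0.020 and -0.161 with 8:2 FTOH, against 0.023, 0.076 and -0.014 with PFOA. In all 3 lists 8:2 FTOH replicate 3 was the lowest of the 6 libraries and replicate 1 the highest.

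Each compound called 8 genes against the shared controls (0.0322% of those tested), 1 higher (0.00402%) and 7 lower (0.0281%) for each, and the direct comparison tests whether the 2 responses differ at those genes. For 8:2 FTOH the genes were SLC7A11, which rose, and PLK2, CDH11, FOS, TCEAL5, CHORDC1, RNVU1-25 and ATP5PF, which fell. For PFOA they were MIR137HG, which rose, and EGR1, FOS, MAOB, GPX4, PTMS, PRR36 and 1 gene not reported here, which fell. FOS is on both lists. With 1 library left out at a time, 1 to 32 genes were called for 8:2 FTOH and 1 to 136 for PFOA, both highest without control replicate 3. Of the 15 genes in all, SLC7A11 alone differed between the compounds past the threshold, so being called for 1 compound and not the other is not by itself a difference at the other 14.

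EGR1, an immediate early transcription factor that growth signals switch on, had 21.74, 21.51 and 26.76 CPM with 8:2 FTOH and 13.37, 16.2 and 16.5 CPM with PFOA, against 45.7, 33.01 and 28.74 CPM in controls. The 3 groups did not overlap, with 8:2 FTOH in between. Between the compounds the log2 fold change was 0.58 ± 0.16 (SE), 1.5-fold with an interval of 1.2 to 1.86 (edgeR adjusted p = 0.351). FOS, an AP-1 subunit of the same class of genes, had 3.294, 2.526 and 2.198 CPM with 8:2 FTOH and 2.399, 2.538 and 1.669 CPM with PFOA, against 8.572, 7.08 and 6.852 CPM in controls. It overlapped between the compounds (log2 fold change 0.32, interval -0.30 to 0.94), and the list of immediate early and ERK feedback genes had a median of 0.14, with 24 of 37 higher.

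PLK2, a polo-like kinase induced by neuronal activity, had 29.39, 29.21 and 28.7 CPM with 8:2 FTOH and 33.67, 32.1 and 32.24 CPM with PFOA, against 40.97 to 48.55 CPM in controls. Its interval between the compounds was -0.40 to 0.07 on the log2 scale. MAOB, the monoamine oxidase, had 26.51, 28.82 and 27.67 CPM with 8:2 FTOH and 19.96, 26.73 and 23.36 CPM with PFOA, against 35.16 to 39.17 CPM in controls. For PTMS the log2 fold change between the compounds was 0.09 (interval -0.08 to 0.26). In these libraries that interval lay within a 1.5-fold difference. MIR137HG, the host transcript of miR-137, had 352.2, 362.2 and 388.2 CPM with 8:2 FTOH and 410.7, 379.9 and 384.8 CPM with PFOA, with the control libraries below both at 282.9 to 323.3 CPM.

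**Figure D4:**
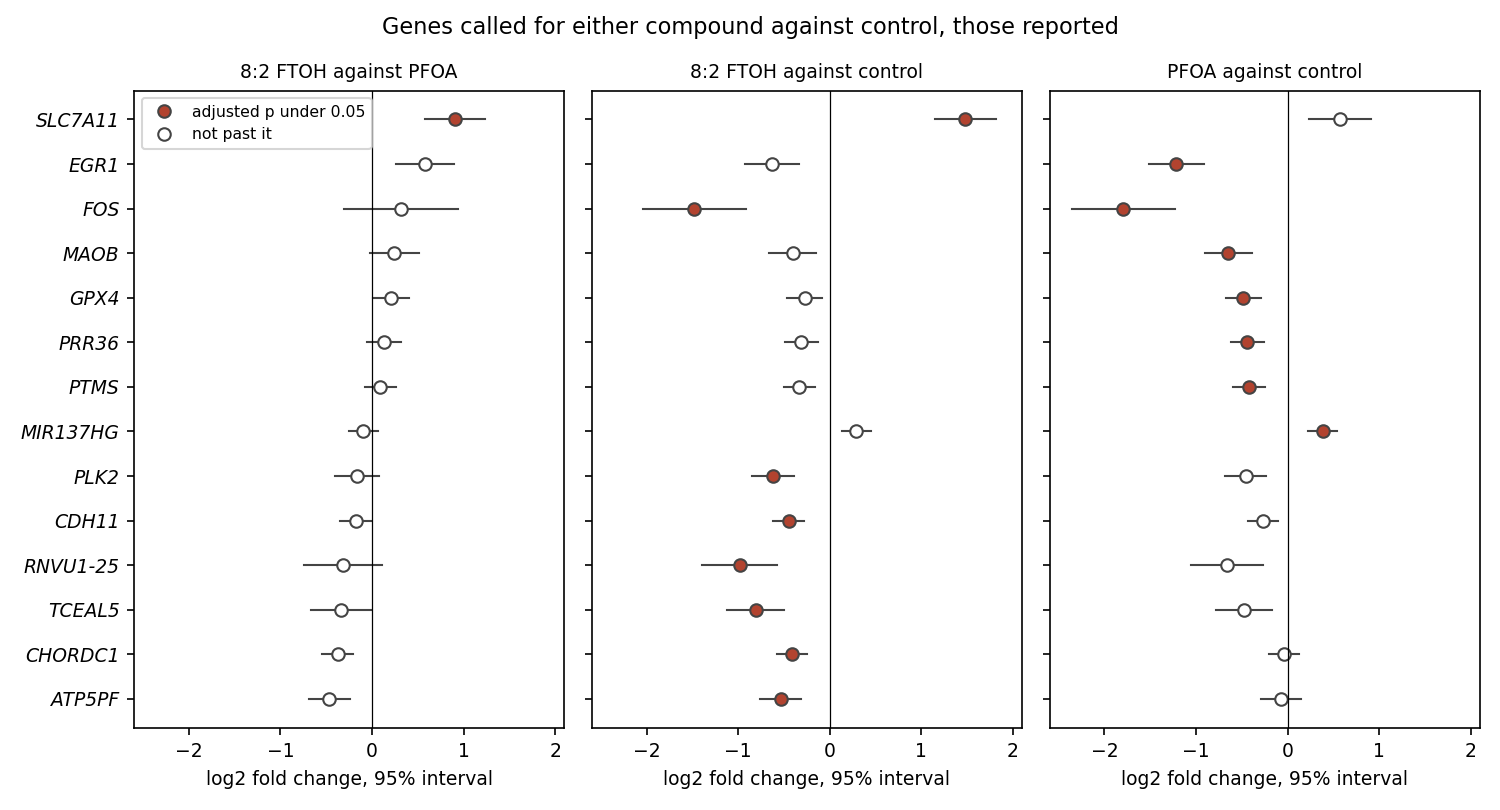
Fitted log2 fold changes with 95% intervals of 14 of the 15 genes called for either compound against control, shown for 8:2 FTOH over PFOA, 8:2 FTOH over control and PFOA over control; filled points passed an adjusted p of 0.05. In the first panel SLC7A11 alone is filled, and both control panels share the same 3 control libraries.

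The enzymes that could oxidise a fluorotelomer alcohol were represented by few abundant transcripts. Of 30 alcohol dehydrogenase, aldehyde dehydrogenase, P450 and P450 reductase genes listed, 17 passed the filter and 7 averaged 10 CPM or more over the 6 libraries. 7 had no count in any of the 6, among them ADH1C, ALDH1A1, CYP2B6, CYP2C19, CYP4A11 and CYP4F11. A count of 0 over a group allows a level of up to 0.0662 CPM for 8:2 FTOH and 0.0646 CPM for PFOA (3 counts over the group's total), for counting error only. Per kilobase of exon, ADH5, the formaldehyde-oxidising class III alcohol dehydrogenase, was the highest, at 29.5 ± 1.93 CPM per kb with 8:2 FTOH and 29.3 ± 3.25 CPM per kb with PFOA (SD, n = 3 each). ALDH9A1, ALDH1B1 and POR, the P450 reductase, followed at 15.45, 13.92 and 10.33 CPM per kb over the 6 libraries, the first 2 of them within their spread of each other.

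**Figure D5:**
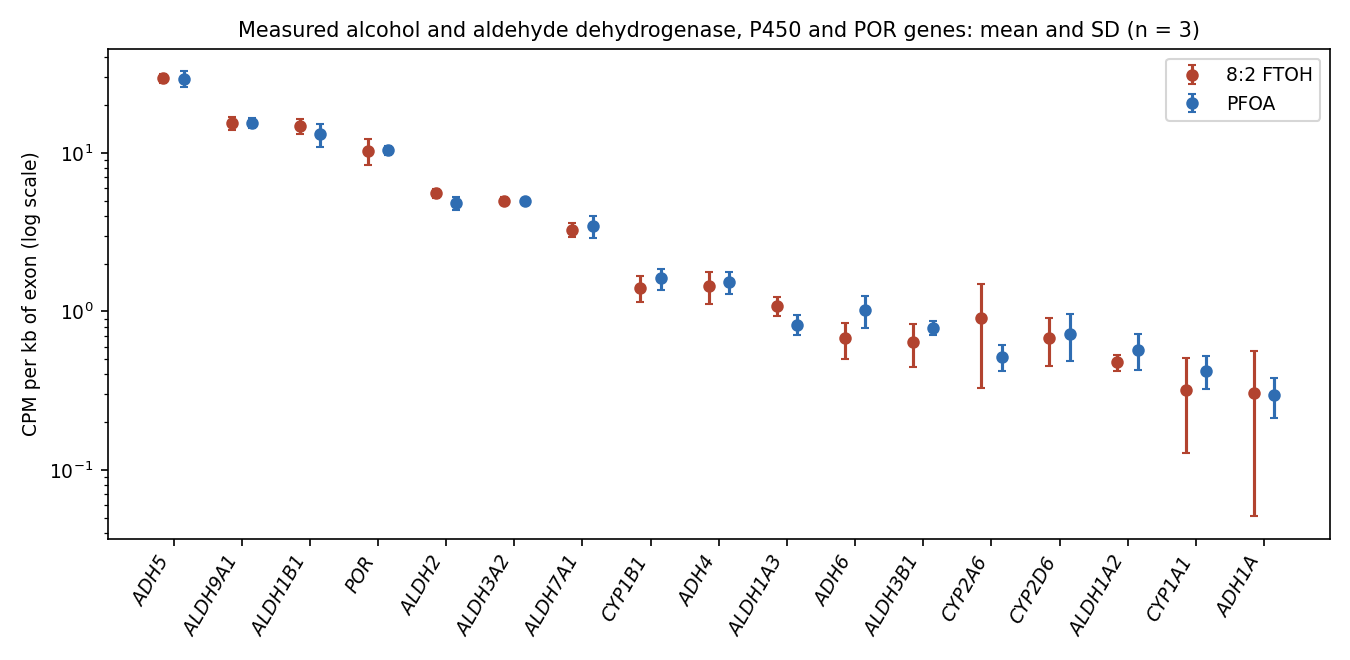
Mean and SD (n = 3) of the level in CPM per kb of exon, on a log axis, of the 17 tested alcohol dehydrogenase, aldehyde dehydrogenase, P450 and POR genes, with 8:2 FTOH left of PFOA for each gene. ADH5 is the highest, at 29.5 with 8:2 FTOH and 29.3 with PFOA, and the P450 genes lie under 2 in both groups.

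None of the 17 oxidation genes was called, against 0.00402% of all genes tested. Their median log2 fold change was -0.06, with 6 higher. In 1 of the 17, ALDH1A3, the groups did not overlap, against 11.5% of all genes. It had 5.187 to 6.671 CPM with 8:2 FTOH and 3.856 to 5.096 CPM with PFOA. Without 8:2 FTOH replicate 3 the median turned to 0.02, with 10 of 17 higher. ADH5 had 152.7, 143.8 and 133.9 CPM with 8:2 FTOH and 137, 160.5 and 130.5 CPM with PFOA, with a 95% interval of -0.15 to 0.18 on the log2 scale. ALDH3A2, the fatty aldehyde dehydrogenase, had 71.55, 77.45 and 80.15 CPM with 8:2 FTOH and 78.75, 77.34 and 73.42 CPM with PFOA (interval -0.16 to 0.16). The sign of both differences turned with the scaling. ALDH2, the mitochondrial enzyme, had 56.48, 55.97 and 50.03 CPM with 8:2 FTOH and 42.41, 51.06 and 47.53 CPM with PFOA, with a log2 fold change of 0.21 (edgeR adjusted p = 0.761) and overlapping groups. ADH6 had 3.705, 3 and 2.198 CPM with 8:2 FTOH and 3.513, 4.33 and 5.592 CPM with PFOA, a log2 fold change of -0.59.

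None of the conjugating enzymes was called either, against 0.00402% of all genes tested. Of 28 UDP-glucuronosyl, sulfo and glutathione transferase genes listed, 16 were tested, 8 were higher and 8 lower. The median log2 fold change was 0.002 (-0.03 without 8:2 FTOH replicate 3). No gene's groups were separate, against 11.5% of all genes. 7 had no count, GSTA1, GSTA2, SULT1A4, UGT1A1, UGT1A6, UGT2B15 and UGT2B7. UGT1A genes share exons and SULT1A4 has a near-identical copy, so reads from them could have been lost in counting. GSTP1 was the highest per kilobase, at 110.8 CPM per kb over the 6 libraries, and had 223.7, 225.7 and 186.9 CPM with 8:2 FTOH and 172.9, 191 and 172.2 CPM with PFOA, ranges that overlapped between 8:2 FTOH replicate 3 and PFOA replicate 2.

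Carriers of organic anions and fatty acids, which include proteins known to bind or move perfluorinated acids, had a median log2 fold change of -0.04 over 24 tested of 32 listed, with 8 higher. Serum albumin (ALB) and the efflux pump ABCG2 had 2 counts each over the 8:2 FTOH libraries and 0 and 2 over the PFOA libraries. ABCC1, an efflux pump for glutathione conjugates, had 129.7, 144.1 and 125.9 CPM with 8:2 FTOH and 101, 121.2 and 120.3 CPM with PFOA (log2 fold change 0.22, edgeR adjusted p = 0.6). Its groups did not overlap. Those of the carrier SLCO1A2 were separate in the other direction, at 14.76 to 17.07 CPM with 8:2 FTOH and 17.68 to 18.68 CPM with PFOA. These were the 2 separate genes of the 24, against 11.5% of all genes. ABCB1, the pump P-glycoprotein, was the highest carrier per kilobase, at 45.68 CPM per kb over the 6 libraries, with 284.2, 280.1 and 289.8 CPM with 8:2 FTOH and 300.4, 318.5 and 287 CPM with PFOA.

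PPAR alpha is a fatty acid receptor that PFOA is known to activate in rodent liver. Its targets and the fatty acid oxidation genes had a median log2 fold change of 0.03, with 20 of 35 higher. None was called, against 0.00402% of all genes tested. ACADVL, the very long chain acyl-CoA dehydrogenase, had 121.9, 138 and 135.4 CPM with 8:2 FTOH and 119.4, 96.98 and 108.3 CPM with PFOA, separate by a small margin (log2 fold change 0.29, edgeR adjusted p = 0.575). Of the 35 tested members, 3 higher and 1 lower had groups that did not overlap, against 5.44% and 6.1% of all genes. PLIN2, a lipid droplet protein and PPAR target, had 25.28, 26.76 and 22.11 CPM with 8:2 FTOH and 21.94, 21.95 and 21.01 CPM with PFOA, with an interval of -0.02 to 0.44. Among other lists, fatty acid synthesis had a median of 0.04 (17 of 23 higher) and cell cycle 0.03 (24 of 40).

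Enzymes of sphingolipid and phospholipid metabolism had a median log2 fold change of 0.04, with 32 of 50 higher. PEMT, which methylates phosphatidylethanolamine, had 13.17, 11.8 and 10.6 CPM with 8:2 FTOH and 7.883, 8.958 and 8.974 CPM with PFOA (log2 fold change 0.46, edgeR adjusted p = 0.6), and ACER2, a Golgi ceramidase, had 6.999, 6.158 and 7.498 CPM with 8:2 FTOH and 3.942, 5.076 and 4.69 CPM with PFOA (log2 fold change 0.57, edgeR adjusted p = 0.626). The groups of both were separate. CEPT1, the choline and ethanolamine phosphotransferase, lay on the other side, with 24.13, 26.57 and 28.7 CPM with 8:2 FTOH and 34.96, 30.76 and 36.21 CPM with PFOA (log2 fold change -0.37, edgeR adjusted p = 0.48). Its groups were separate too. Of the 50 tested members, 5 higher and 4 lower had groups that did not overlap, against 5.44% and 6.1% of all genes.

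Extracellular matrix and secreted factors had a median log2 fold change of 0.11 (31 of 45 higher), among them IGFBP5, a binding protein of insulin-like growth factors, with 67.76, 72.63 and 64.64 CPM with 8:2 FTOH and 52.1, 67.04 and 50.96 CPM with PFOA. Genes of the synaptic vesicle had a median of 0.06 (24 of 42 higher), ion channels and pumps 0.03 (26 of 46), retinoic acid metabolism and targets 0.02 (12 of 19), and estrogen receptor targets 0.12 (10 of 14). ER chaperones stood at 0.01 (16 of 27), with HERPUD1, which acts in degradation of misfolded ER proteins, at a log2 fold change of 0.28. The nuclear respiratory chain stood at -0.04 (18 of 39), cytosolic ribosomal proteins at -0.02 (21 of 47) and histones at -0.04 (18 of 42). Without 8:2 FTOH replicate 3 these 3 medians turned to 0.02 (22 of 39 higher), 0.10 (35 of 47) and 0.07 (34 of 42). Markers of mesenchymal-type neuroblastoma cells had a median of 0.05 (10 of 15 higher), with vimentin (VIM) at 26.92, 25.89 and 24.3 CPM with 8:2 FTOH and 20.99, 21.65 and 17.99 CPM with PFOA. In the same list CD44 lay lower, at 4.849 to 5.554 CPM with 8:2 FTOH and 5.894 to 6.035 CPM with PFOA, as did PROM1, at 0.247 to 0.630 CPM with 8:2 FTOH and 0.765 to 1.267 CPM with PFOA. Of its 15 tested members, 2 higher and 2 lower had groups that did not overlap, against 5.44% and 6.1% of all genes. The medians of the last lists were, for Schwann and glial markers, -0.20 (4 of 9), for immune, epithelial and endothelial markers 0.21 (3 of 4), and for nuclear long noncoding RNAs -0.09 (0 of 7).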

How the data were processed

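RNA of 21 libraries was sequenced. Per the labels' protocols, RNA was extracted with TriZol and libraries were made with a stranded kit that depletes ribosomal RNA. Per the submitters' processing notes, reads were checked with FastQC and MultiQC, aligned with HISAT2 to hg38, handled with SAMtools and counted with featureCounts, and DESeq2 is named too. The headers of the deposited counts give featureCounts 2.0.1, run without regard to strand, so a gene that overlaps another may share or lose reads. Among genes named, NPLOC4, PSMD11, NOL11, FAM219A, RSRP1, ATP5PF, PLK1, MIR137HG, PTMS, CDH11, TXNRD1, CTSD, SLC18A3, ALDOA, IDI1, ACADVL, ME1, CEPT1, PEMT, IGFBP5, ADH6, ALDH3A2 and ABCB1 overlap another gene. The authors deposited raw counts for 62656 genes in 21 libraries. Their normalized table has 37476 genes in 19 libraries in the unit signal: the deposited values are counts divided by 1 factor per library, and 100% were whole reads within 0.01 and equal to the raw counts, so only the raw counts were tested. Gene lengths are those of the deposited count table.

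Genes were filtered with filterByExpr and scaled with TMM in edgeR 4.0.16 (R 4.3.3), and a robust quasi-likelihood fit over all 21 libraries gave each contrast, with Benjamini-Hochberg adjustment over 24879 genes. CPM are scaled with TMM, and intervals are 95% intervals of the fit. DESeq2 1.42.0 and other settings were alternatives, and the fit was tested on simulated data. Tables and figures used Python 3.11.15, pandas 2.3.3 and matplotlib 3.10.9. Totals ran from 7680024 to 30429746 counts (median 14633793). Genes named were called genes, those with the smallest p up to 20, up to 4 members of each list by p, genes called against control, abundant members of the enzyme and carrier lists, and EGR1, FOS and SLC7A11; other genes are given as levels or were named after their values were seen. The genes, the comparison and the 31 lists were chosen with earlier results of these data known, and lists are described by counts and medians, not tested. Some genes and 1 list are not reported here. Replicate numbers do not pair libraries across groups.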

Additional observations from a re-analysis of the deposited data

How the results depend on the processing

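The number of genes called for 8:2 FTOH against PFOA depended on the setting. It was 1 in the reported fit, 1 with DESeq2 size factors, 3 with scaling by library size, 23 with no filter on low counts, 7 with a stricter filter, 19 with the DESeq2 test, 14 with only the groups compared in the fit, 0 against a minimum fold of 1.2, 2 with a non-robust fit, 14 among protein-coding genes, and 0 to 13 with 1 library left out (13 without 8:2 FTOH replicate 1, and 0 without 8:2 FTOH replicate 2 or 3 or PFOA replicate 3). Without PFOA replicate 1 the 1 gene was ADM2, and without PFOA replicate 2 it was MAP1A. Chosen after seeing the data, leaving out both libraries absent from the normalized table gave 0, and leaving out the mitochondrial chromosome gave 4. SLC7A11 was past the threshold in 11 of 18 alternatives, with log2 fold changes of 0.84 to 1.00, and its adjusted p was 0.278 against a minimum fold of 1.2 and 0.0713 without both absent libraries. For 8:2 FTOH against control (8) the count was 107 with no filter, 59 with DESeq2, 31 with only the groups compared, 1 with the minimum fold, 17 among protein-coding genes and 1 to 32 with 1 library left out (32 and 25 without control replicate 3 and 8:2 FTOH replicate 1, and at most 2 without each of the other 4). For PFOA against control (8) it was 4 with library size, 161 with no filter, 75 with DESeq2, 82 with only the groups compared, 2 with the minimum fold, 2 with a non-robust fit, 1 to 136 with 1 library left out (136 and 35 without control replicate 3 and PFOA replicate 2, and at most 2 without each of the other 4) and 169 without both absent libraries. The cause was not tested. A replicate block, in which samples share only a number (correlations of same-numbered deviations -0.057, 0.037 and 0.041), left 1 gene called for 8:2 FTOH against PFOA and 8 and 6 against control. Library size scaling moved the split at an unadjusted p under 0.05 to 636 higher and 1125 lower genes, and the median of all genes to -0.03. The share of genes with an interval within 2-fold ran from 76.76% to 93.6%. Of 402 list medians under alternatives 396 moved by less than the spread of that list's own median level between replicates (the root of the summed variances of both groups), a wide limit for lists whose 8:2 FTOH libraries lay far apart. The others were the synaptic list (leave-outs -0.003 to 0.094), the Schwann and glial list (-0.390 to 0.008) and the nuclear RNA list (leave-outs -0.224, without 8:2 FTOH replicate 3, to -0.05, and -0.207 without both absent libraries). Within that limit, leaving out 8:2 FTOH replicate 3 still turned the medians of the oxidation (0.02), conjugation (-0.033), nuclear respiratory chain (0.024), ribosomal (0.095), histone (0.073) and ion channel (-0.002) lists. Leaving out 8:2 FTOH replicate 1 turned those of the carriers (0.003), cell cycle (-0.001), conjugation (-0.034), ER chaperones (-0.01) and retinoic acid (-0.021), and leaving out PFOA replicate 1 those of fatty acid synthesis (-0.001) and ER chaperones (-0.015). ADH5 turned negative with library size (-0.014), among protein-coding genes (-0.002) and in 3 of 6 leave-outs (-0.047 to 0.103), and ALDH3A2 turned positive with DESeq2 size factors, the DESeq2 test, only the groups compared and without the mitochondrial chromosome (0.001 in each) and in 3 of 6 leave-outs (-0.036 to 0.041). Depth limits the low genes most, since 8:2 FTOH replicate 3 held 7680024 counts.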
